A study of Brachypodium distachyon with 6 samples.

Results

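The study's gene ontology list for sulfate assimilation in pruned roots of *B. distachyon* holds 5 genes, out of 19538 genes in the deposited table. They are Bradi4g40800, Bradi1g63640, Bradi1g17430, Bradi3g57470 and Bradi5g22770, found by their identifiers, and all 5 were measured in each library. The samples were 3 root libraries of pruned plants and 3 root libraries of intact plants of the inbred line Bd21. Pruned seedlings were 2 weeks old when scissors removed the upper shoot and left a stub, and the intact plants came from the uncut part of the same boxes, with 20 seeds sown per box. Roots of both groups were collected 2 days after the cutting, from half-strength MS agar with sucrose, so the roots had an external sugar source in either group.

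A supplementary gene group of the study gives these 5 identifiers the heading sulfate assimilation together with oxidation and reduction, and all 5 gene names in it are thioredoxins or thioredoxin-like proteins. Its columns do not pair row by row, because the identifier and the named gene lie on the same chromosome in only 2 of the 5 rows. The pairing by chromosome assumes that the 5 identifiers and the 5 names are the same genes, which was not checked. On that basis Bradi4g40800 on chromosome 4 would be the thioredoxin M-type and Bradi3g57470 on chromosome 3 the thioredoxin-like 3-1. Bradi5g22770 on chromosome 5 would be the thioredoxin-like protein CXXS1. Bradi1g17430 and Bradi1g63640 both lie on chromosome 1 and would take the names thioredoxin-like 1-1 and 1-2. Order along that chromosome would give 1-1 to Bradi1g17430, whereas the gene group's own row puts 1-2 beside it. Both are therefore called thioredoxin-like 1 here. The rows as printed put the M-type beside Bradi1g63640, 3-1 beside Bradi4g40800 and 1-1 beside Bradi3g57470. For Bradi1g63640, Bradi4g40800 and Bradi3g57470 the names used below thus rest on the pairing by chromosome alone. Another supplementary list of the study prints unrelated annotations beside the same identifiers, among them a growth-regulating factor and a histone. The family and the single names are therefore given here with the gene group as their only source, and they were not checked against any sequence.

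Sulfate assimilation takes sulfate up through membrane transporters, activates it with ATP and reduces it through sulfite to sulfide, which is built into cysteine. Thioredoxins are small proteins that reduce disulfide bonds of other proteins through a pair of active-site cysteines. In *Escherichia coli* thioredoxin donates electrons to the reductase of activated sulfate, whereas the adenylylsulfate reductase of plants carries its own glutaredoxin-like domain. None of the 5 names is that of a sulfate transporter or of an enzyme that acts on sulfate, sulfite or sulfide. As named in that gene group, they are redox proteins listed under the sulfate term.

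Of the 5 genes, 4 had more reads in pruned roots and 1 had fewer. The list was selected on the difference between these same libraries, with a false discovery rate of at most 0.05 from edgeR and a fold threshold of 1.5 in the study's methods and 2 in its results. The levels below are therefore a description without a test, and the direction of each gene is part of how it was chosen. Levels are RPM, the reads of a gene scaled to 1000000 reads counted in its library, with mean ± SD of 3 libraries. RPM is not divided by transcript length, so it compares 1 gene between libraries but does not rank the 5 genes against each other. In bulk roots, fewer cells of a type and less RNA per cell cannot be told apart. For pruned replicates 2 and 3 the authors kept the first read of each pair alone, while pruned replicate 1 and the 3 intact libraries were processed as pairs.

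Bradi1g17430, named thioredoxin-like 1, was the gene that was lower after pruning. In *Arabidopsis*, proteins of this plastid group have atypical active sites and pass oxidizing equivalents from a plastid peroxiredoxin to other proteins. Pruned libraries 1, 2 and 3 had 46.9, 43.5 and 42.6 RPM, against 139, 135 and 147 RPM in intact libraries 1, 2 and 3. All pruned libraries lay far below all intact libraries, with 88.5 RPM between the nearest pair. The mean was 44.4 ± 2.27 RPM in pruned roots and 140.5 ± 6.11 RPM in intact roots, or 3.17-fold lower after pruning. The log2 fold change of pruned over intact roots was -1.65 on log2(RPM + 0.5), with a standard error of 0.05. Of all 19538 genes, 98 had a more negative value.

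Bradi1g63640, the other gene named thioredoxin-like 1, went the other way. It had 85.9, 86.9 and 87.1 RPM in the pruned libraries, against 53.9, 50.2 and 51.7 RPM in the intact libraries. The pruned libraries were nearly equal to each other, and each was above each intact library. Their coefficient of variation was 0.735%, below the 2.23% that counting error alone gives. The mean was 86.7 ± 0.637 RPM in pruned roots and 51.9 ± 1.82 RPM in intact roots, a ratio of 1.67 and a log2 fold change of 0.73 (standard error 0.05). Of the 4 higher genes this one lay nearest to the study's 1.5-fold threshold by these values. With read layout as a term in the fit Bradi4g40800 lay nearer, at a log2 fold change of 0.63 against 0.72 for Bradi1g63640.

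The ratio of reads between these genes named thioredoxin-like 1 differed between the groups. Bradi1g17430 had 0.546, 0.5004 and 0.489 reads for each read of Bradi1g63640 in pruned libraries 1, 2 and 3. In intact libraries 1, 2 and 3 the same ratio was 2.58, 2.70 and 2.85. Transcript length cancels in the change of this ratio, which was 5.28-fold between the group means. The corresponding change of Bradi1g17430 against the other 3 genes was 5.43-fold for Bradi4g40800, 5.57-fold for Bradi3g57470 and 5.59-fold for Bradi5g22770.

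Bradi4g40800, named thioredoxin M-type, had the most reads of the 5 in pruned roots. M-type thioredoxins are plastid proteins that receive electrons from ferredoxin in chloroplasts and reduce enzymes of carbon metabolism. The pruned libraries had 189.9, 217 and 225 RPM, against 124, 128 and 115 RPM in the intact libraries. The lowest of the pruned values belongs to replicate 1, the paired-end library, and it was still 61.6 RPM above the highest intact library. The mean was 211 ± 18.5 RPM in pruned roots and 122 ± 6.87 RPM in intact roots, with a ratio of 1.72 and a log2 fold change of 0.78 (standard error 0.06). Against the intact mean, the ratio was 1.55 in pruned replicate 1 and 1.81 in pruned replicates 2 and 3 together. The part of read layout in this gap was not tested.

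Bradi3g57470, named thioredoxin-like 3-1, is by that name another plastid thioredoxin-like protein and was covered by the fewest reads. It had 26.5, 22.4 and 29.9 RPM in the pruned libraries, against 15.5, 14.4 and 14.3 RPM in the intact libraries. The pruned libraries varied most here, with a coefficient of variation of 14.4%, against 4.59% in intact roots. Counting error alone gives 4.06% in the pruned and 5.92% in the intact libraries. The groups did not overlap, with means of 26.3 ± 3.79 RPM in pruned roots and 14.8 ± 0.678 RPM in intact roots. The ratio was 1.78 and the log2 fold change 0.80 (standard error 0.09). The reads behind these values were 458, 636 and 794 in pruned libraries 1, 2 and 3, against 331, 271 and 260 in intact libraries 1, 2 and 3. For the smallest of these counts, intact replicate 3, the exact Poisson 95% interval was 12.6 to 16.2 RPM, which covers counting error only.

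Bradi5g22770, named thioredoxin-like protein CXXS1, is by that name of a kind in which serine replaces the second active-site cysteine. It had 77.7, 81.8 and 83.5 RPM in the pruned libraries, against 50.9, 49.3 and 39.4 RPM in the intact libraries. Here the intact libraries varied more, since intact replicate 3 was lower than the other two. The coefficient of variation was 3.69% in pruned roots and 13.3% in intact roots. The lowest pruned library was 26.8 RPM above the highest intact library. The mean was 81.0 ± 2.99 RPM in pruned roots and 46.5 ± 6.20 RPM in intact roots, a ratio of 1.74 and a log2 fold change of 0.80 (standard error 0.07). Without intact replicate 3 the log2 fold change was 0.69.

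**Figure D1:**
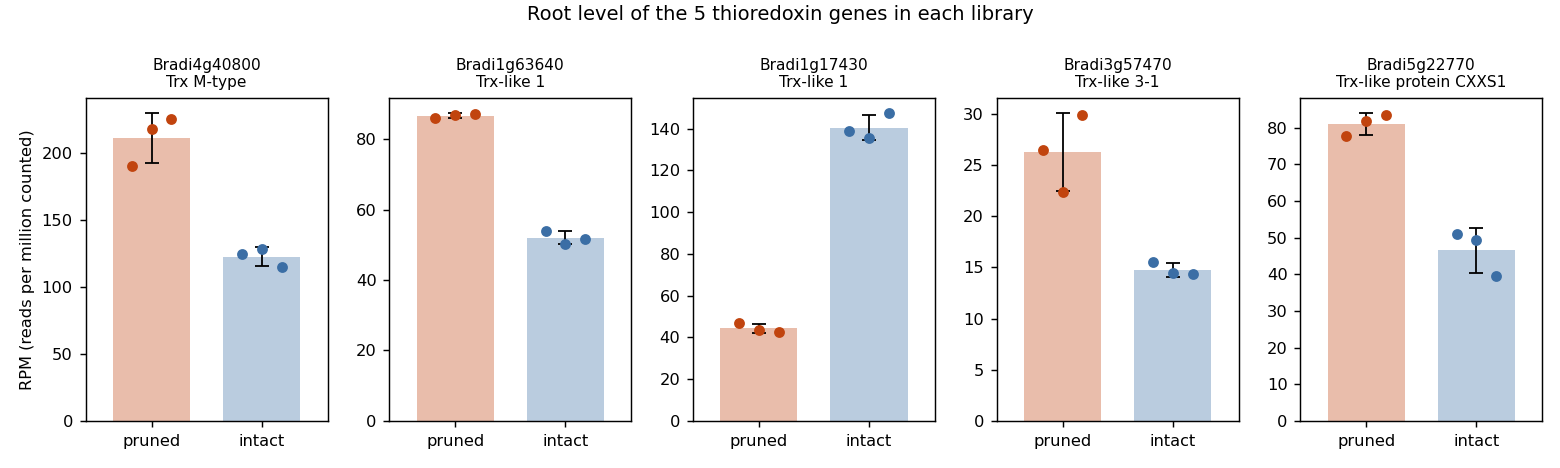
RPM (vertical axis, from 0, own scale for each gene) of the 5 genes in pruned and intact root libraries, with points for the 3 libraries of a group from replicate 1 to 3, bars for the mean and error bars for the SD. Bradi1g17430 is the only one of the 5 with lower bars in pruned roots (44.4 against 140.5 RPM). The groups do not overlap for any of the 5, as for 56% of all genes in the table.

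The ratios of mean RPM of the 4 higher genes ran from 1.67 to 1.78 and their log2 fold changes from 0.73 to 0.80, without a test of the differences between the genes. With read layout as a term in the fit the same values ran from 0.63 to 0.82. A list cut at 1.5-fold holds no smaller rises. None of these 4 reached 2-fold, by the ratio of means or by the fitted value, and only Bradi1g17430 did, in the other direction. By these values the 4 pass the 1.5-fold threshold of the study's methods but not the 2-fold one stated in its results. For all 5 genes the pruned and intact libraries did not overlap, as for 56% of all genes in the table. With limma, 30.1% of all genes were called higher and 20.2% called lower at an adjusted p of at most 0.05, where other scalings gave a more even split. Of the called genes, 59.9% were higher in this fit, against 51.5% with median-ratio scaling, 51.7% with TMM scaling, 50.1% with quantile normalization and 51.4% with the quasi-likelihood test of edgeR. In the limma fit 4.26% of all genes were called with at least 2-fold change, 2.54% higher and 1.72% lower. These shares are given as background, and nothing is read from them about genes that were listed for this contrast. The median log2 fold change was 0.78 over the 5 genes and 0.04 over all genes. Since the 5 were listed for a fold change in this contrast, a gap between these medians was fixed in advance. Between 4.36% and 5.37% of all genes had a larger rise than each of the 4.

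**Figure D2:**
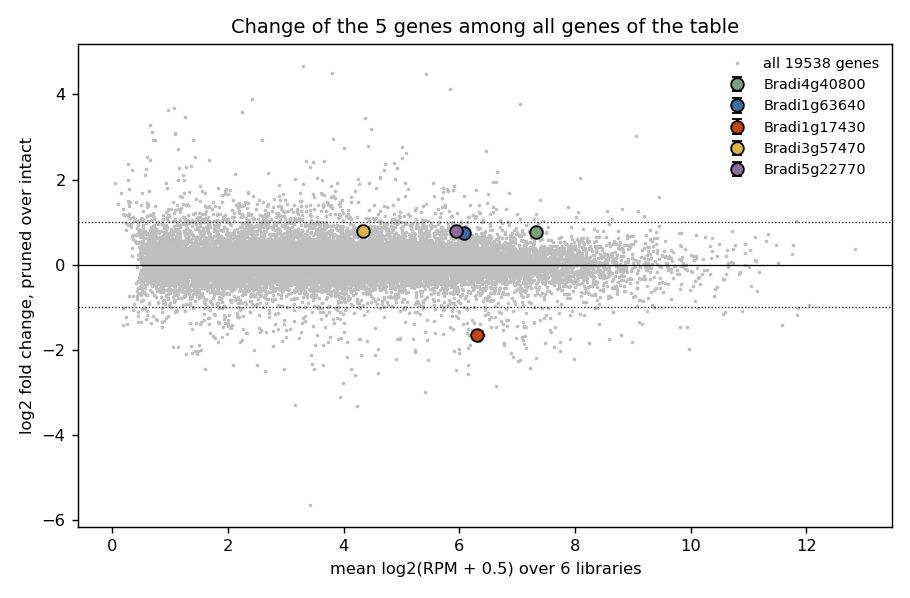
Log2 fold change of pruned over intact roots (vertical axis) against the mean log2(RPM + 0.5) of 6 libraries (horizontal axis) for all 19538 genes in grey and the 5 genes in colour, with standard errors as bars that are mostly hidden by the points and dotted lines at 2-fold. The 4 higher genes sit side by side at 0.73 to 0.80, below the upper line, and Bradi1g17430 sits at -1.65, below the lower line.

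As a ratio, the summed level of the 5 genes differed less between the groups than any single gene. The sum was 427, 452 and 468 RPM in pruned libraries 1, 2 and 3, against 383, 378 and 368 RPM in intact libraries 1, 2 and 3. This is 449 ± 20.8 RPM in pruned roots and 376 ± 7.86 RPM in intact roots, a ratio of 1.19. The 4 higher genes had 169 RPM more in pruned roots when added up, of which Bradi4g40800 gave 88.3 RPM, and the difference for Bradi1g17430 was -96.12 RPM.

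Of the reads of the 5 genes, Bradi1g17430 held 10.99%, 9.62% and 9.11% in pruned libraries 1, 2 and 3, against 36.2%, 35.9% and 40.05% in intact libraries 1, 2 and 3. It held the largest share in each intact library, and the fourth largest in each pruned library, after Bradi4g40800, Bradi1g63640 and Bradi5g22770. Bradi4g40800 held 46.9% ± 2.08 in pruned roots and 32.5% ± 1.37 in intact roots. The shares of Bradi1g63640 were 19.3% ± 0.765 in pruned roots and 13.8% ± 0.442 in intact roots. Bradi5g22770 held 18.04% ± 0.193 in pruned and 12.4% ± 1.41 in intact roots, and Bradi3g57470 held 5.85% ± 0.786 in pruned and 3.92% ± 0.122 in intact roots. These are shares of reads, which depend on transcript lengths as well as on numbers of transcripts.

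**Figure D3:**
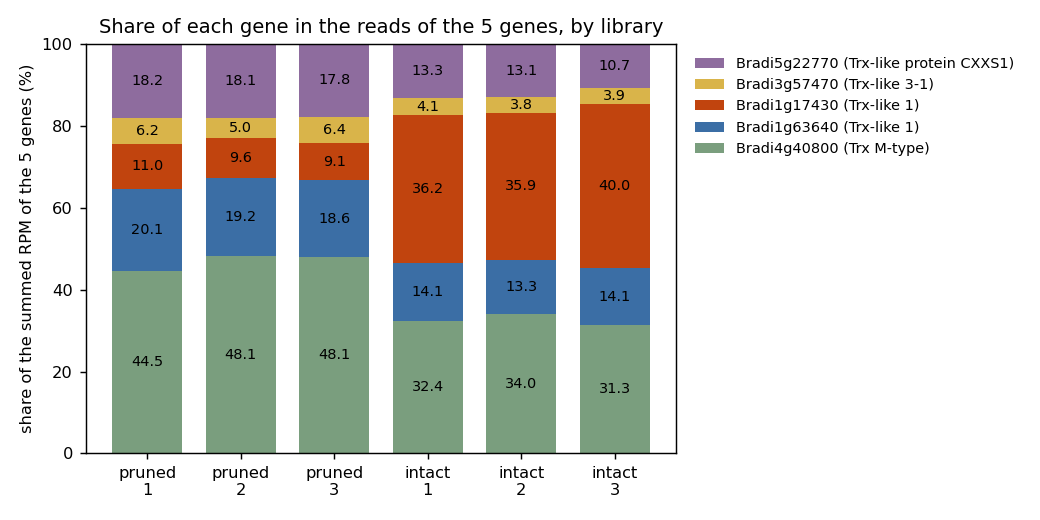
Share of each gene in the summed RPM of the 5 genes (vertical axis, %) in each of the 3 pruned and 3 intact libraries, as stacked bars with the share printed in each segment. The segment of Bradi1g17430 is 9.11% to 10.99% in pruned libraries and 35.9% to 40.05% in intact libraries.

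The genes beside the 5 on the chromosomes were not used in choosing them, so their changes were tested. The 2 nearest measured genes on each side by locus number were taken, 20 genes in all, which the sources used here do not name. With limma on log2(RPM + 0.5) and Benjamini-Hochberg adjustment over all genes, 6 of the 20 were called higher in pruned roots and 5 lower at an adjusted p of at most 0.05. This is 55.0% of them, close to the 50.3% of all genes called in this contrast. Their median log2 fold change was -0.02, against 0.04 over all genes.

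Beside Bradi1g17430, the next gene down, Bradi1g17420, was also lower, with 4.39 ± 0.487 RPM in pruned and 8.12 ± 0.856 RPM in intact roots (log2 fold change -0.82, limma adjusted p = 3.6e-06). On the other side Bradi1g17440 was higher, with 58.2 ± 1.26 RPM in pruned and 40.8 ± 0.303 RPM in intact roots (log2 fold change 0.51, limma adjusted p = 2.4e-08). Bradi1g17450, 2 places from Bradi1g17430, was higher by a log2 fold change of 3.79 (standard error 0.06, limma adjusted p = 2.0e-23), with 493 ± 9.90 RPM in pruned and 35.4 ± 3.97 RPM in intact roots. It was the only one of the 20 genes called with at least 2-fold change. Bradi1g17430 thus had neighbours called in both directions, as had Bradi1g63640 and Bradi5g22770, where 50.3% of all genes were called.

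Beside the 4 higher genes the neighbours differed less, with log2 fold changes from -0.61 to 0.73. Bradi1g63616, 2 places from Bradi1g63640, had the largest rise of these, with 9.29 ± 1.03 RPM in pruned and 5.42 ± 0.805 RPM in intact roots (log2 fold change 0.73, limma adjusted p = 1.5e-05). Bradi1g63680, 2 places away on the other side, was lower (log2 fold change -0.61, limma adjusted p = 6.2e-04). Of the 4 neighbours of Bradi4g40800 only Bradi4g40810 was called, and it was higher (log2 fold change 0.40, limma adjusted p = 9.1e-05). Around Bradi3g57470, 2 neighbours were lower and none was called higher. Around Bradi5g22770, 1 neighbour was higher and 1 was lower.

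**Figure D4:**
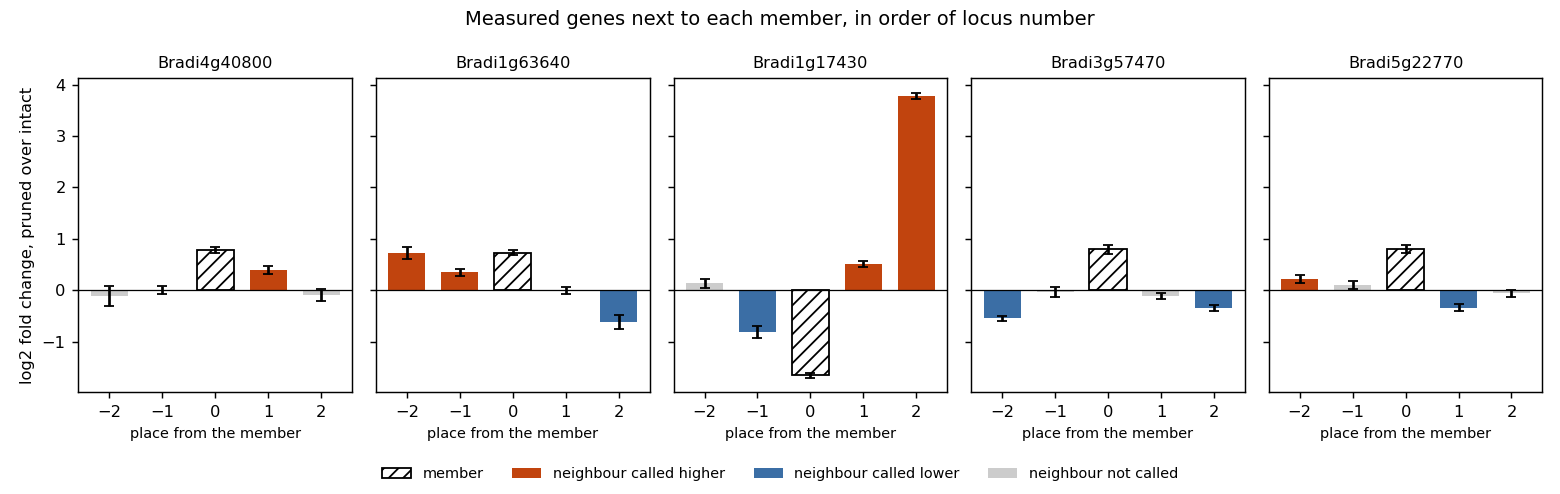
Log2 fold change of pruned over intact roots (vertical axis) of each of the 5 genes (hatched, place 0) and of the 2 nearest measured genes on each side by locus number (horizontal axis, place), with standard errors. Neighbours are coloured by their limma call at an adjusted p of at most 0.05. The bar at 3.79 is Bradi1g17450, beside Bradi1g17430.

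The pattern of each gene over the 6 libraries was also set against the 19376 genes with a mean of at least 1 RPM, by Pearson's r on log2(RPM + 0.5). With 3 libraries in each group, r mainly records the difference between the groups and is given as a description. Nearest to Bradi1g17430 was Bradi1g64487 (r = 0.9998), with 9.58 ± 0.536 RPM in pruned and 58.1 ± 3.68 RPM in intact roots, followed by Bradi2g33290 (r = 0.9997). Bradi1g63640 was nearest to Bradi2g02800 and Bradi3g38290 (both r = 0.9997). Bradi4g40800 was nearest to Bradi3g42700 (r = 0.9996) and Bradi1g03530 (r = 0.9994), and the nearest, with 217 ± 7.59 RPM in pruned and 177 ± 3.43 RPM in intact roots, differed by less than Bradi4g40800 did, since r takes no account of the size of a change. For Bradi5g22770 the nearest were Bradi2g12420 (r = 0.9994) and Bradi5g19940 (r = 0.9990), and for Bradi3g57470 they were Bradi2g08287 (r = 0.9991) and Bradi3g37690 (r = 0.9981). An r above 0.99 was reached by 533 genes for Bradi1g63640, 468 for Bradi1g17430, 177 for Bradi4g40800, 105 for Bradi5g22770 and 21 for Bradi3g57470. No nearest 2 held another of the 5 genes. With 19376 genes compared this was likely beforehand, and it says nothing about a shared pattern.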

How the data were processed

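Root RNA of 3 pruned and 3 intact samples was sequenced with reads of 150 nt. Trimming by the authors used SolexaQA and cutadapt, and TopHat placed reads on the genome of phytozome v11, after which those with a unique position were counted per gene. The submitters' processing notes also name HTSeq. The strand setting and an assembly name are not given in the sources used here. Gene coordinates from a reference annotation were used only to place the named genes on chromosomes and in order. The deposited values are RPM, in which the authors set each library's gene reads to a total of 1000000. All values were whole multiples of the RPM of 1 read within 0.01 of a read, which gave totals of 17278649 to 28420464 reads in pruned and 18150223 to 21292543 reads in intact libraries.

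The 19538 genes were fitted with limma 3.58.1 in R 4.3.3 (eBayes with trend=TRUE) on log2(RPM + 0.5). Genes had to reach 0.5 RPM in 3 or more libraries, and no gene was lost by this. A filter of 1 RPM also gave 9830 called genes. Shares of all genes are shares of this deposited table, in which each gene passed the 0.5 RPM filter. The test was two-sided, and p-values were adjusted over all genes after Benjamini and Hochberg. Alternatives were other pseudocounts, filters and scalings, limma without the trend, edgeR 4.0.16 and DESeq2 1.42.0 on the recovered reads, the replicate number or read layout as a term, and each library left out. The tests were also tried on simulated data, where each of them recovered all 200 genes changed 4-fold among 19474 genes, with 8 to 12 false calls. The simulation had the same dispersion for all genes, no difference in read layout and far fewer changed genes than were called here. It therefore does not tell how many of the calls in these libraries are false. Python 3.11.15 with pandas 2.3.3, scipy 1.17.1 and matplotlib 3.10.9 was used for the rest.

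The genes and lists were chosen with earlier results of these data known, and the neighbouring genes were added after the files were seen. The genes named were, by rule, the 5 genes and the 2 genes nearest in pattern to each, and the neighbours named were picked after their values were seen. Lists of sulfate transporters, sulfur enzymes, other thioredoxins and tissue markers had been planned by product name. They were not analysed here, because the gene reference used pairs 0 of the 19538 identifiers with a name, and the root label was not checked against markers. Gene names come from a supplementary gene group of the study, 3 paired by chromosome and 2 given by the name of their subgroup. No sequence was used, so reads shared with near-identical copies were not examined. The study calls its libraries biological replicates, though its labels do not tie a library to a box, so p-values measure the spread between these libraries.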

Additional observations from a re-analysis of the deposited data

How the results depend on the processing

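All 5 genes kept their direction under each of the 19 alternatives, which for several of them was fixed in advance. Leaving out 1 library could not reverse a gene whose groups did not overlap. The other filters and limma without the trend left the fitted values as they were. The log2 fold change of Bradi1g63640 moved by more than the spread between its libraries, which was small and, in pruned roots, below counting error. It was 0.69 with median-ratio scaling, 0.69 with TMM scaling and 0.68 with quantile normalization. The quasi-likelihood test of edgeR, its exact test and DESeq2 each gave 0.69. These settings also lowered the median of all genes, by 0.04 to 0.06 on the log2 scale. With read layout as a term, which rests on pruned replicate 1 as the only paired-end pruned library, the value was 0.63 for Bradi4g40800 and -1.57 for Bradi1g17430. Leaving out 1 library gave 0.73 to 0.85 for Bradi4g40800, 0.71 to 0.76 for Bradi1g63640, 0.70 to 0.91 for Bradi3g57470, 0.69 to 0.87 for Bradi5g22770 and -1.69 to -1.62 for Bradi1g17430. Of the 20 neighbouring genes, 5 or 6 were called higher and 5 or 6 lower under each alternative.

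Same-numbered pruned and intact libraries had deviations from their group means that correlated at -0.03, 0.20 and 0.08. Differently numbered ones correlated at -0.21 to 0.12. With so few libraries these values cannot decide whether the numbers pair libraries from the same boxes. The replicate block cannot change the fitted differences of a balanced design, so the values of the 5 genes are the same by construction. It gave 10141 genes called over the table in place of 9830, and 836 in place of 833 with at least 2-fold change. The planned lists of sulfur genes and thioredoxins were not run under any setting, for want of names. Depth limits Bradi3g57470 most, with 260 to 331 reads in intact libraries.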
